A study of Mus musculus with 18 samples.

Results

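The 31 genes described here are targets and regulators of the sterol regulatory element-binding proteins (SREBPs), taken by symbol from the 56748 genes counted in mouse bone marrow-derived macrophages. They fall into 18 enzymes of the sterol branch, which leads from acetyl-CoA to cholesterol, 5 regulators and 8 enzymes of the fatty acid branch. Each symbol had a single row in the count table, and all 31 were among the 15450 genes with enough counts to be tested. No threshold on measured values entered the choice of members, which was made with earlier results of these data known. RNA was sequenced from macrophages of wild-type and TLR4 knockout C57BL/6J mice, grown with supernatant of L929 cells, which secrete M-CSF, and treated on day 7 for 24 h in IMDM without serum. Cells of each genotype received water, GM (GlcNAc-MurNAc, a disaccharide of the bacterial cell wall) or MDP, at doses not given in the sources used here. MDP is written MurNAc-D-Ala-L-Gln in the labels. This differs from MurNAc-L-Ala-D-isoGln, the muramyl dipeptide that NOD2 is known to sense, and the molecule used is not settled here. The 6 groups held 3 libraries each, 18 in all. They are called biological replicates, with no word on animals or cultures. A p-value here thus sets a difference against the spread of these libraries, which may be technical. The extent of the Tlr4 deletion is not given in the sources used here.

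SREBPs are transcription factors held in the endoplasmic reticulum by SCAP and INSIG proteins while cell cholesterol is high. When sterols fall, SCAP carries the precursor to the Golgi, where it is cleaved, and the released factor turns on its targets together with the cofactors NF-Y and Sp1. SREBP-2, encoded by Srebf2, acts mainly on cholesterol synthesis, and SREBP-1c, from Srebf1, mainly on fatty acid synthesis and desaturation. Srebf1, Scd1 and other lipogenic genes are also targets of LXR, the receptor for oxysterols. In macrophages these pathways supply membrane lipid and are known to be remodelled by bacterial ligands.

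The promoters of 5 members are shown for a sequence feature held by more sterol than fatty acid branch genes, the CCAAT box that NF-Y binds, with Elovl6 as a member that lacks it in the stretch printed. RefSeq (build GRCm38.p6, not the GRCm39 build of the counts) gave 30 promoters for 24 of the 31 members, each with 250 bases before and 50 after an annotated start. Promoters of Fdps, Fdft1, Sqle, Stard4, Scd1, Scd2 and Fads1 were not used here. The 250 bases before the start are printed below, all on the plus strand, with CCAAT and its reverse complement in capitals. Hmgcs1, Mvk, Pmvk and Lss belong to the sterol branch and Elovl6 to the fatty acid branch, and of the Pmvk starts the more upstream is shown.
Hmgcs1 (chr13:119690101-119690350): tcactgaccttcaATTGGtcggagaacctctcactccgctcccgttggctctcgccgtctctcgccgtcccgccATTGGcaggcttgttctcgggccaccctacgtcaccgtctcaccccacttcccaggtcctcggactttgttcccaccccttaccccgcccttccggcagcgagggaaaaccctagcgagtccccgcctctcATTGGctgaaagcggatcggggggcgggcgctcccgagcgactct
Mvk (chr5:114444019-114444268): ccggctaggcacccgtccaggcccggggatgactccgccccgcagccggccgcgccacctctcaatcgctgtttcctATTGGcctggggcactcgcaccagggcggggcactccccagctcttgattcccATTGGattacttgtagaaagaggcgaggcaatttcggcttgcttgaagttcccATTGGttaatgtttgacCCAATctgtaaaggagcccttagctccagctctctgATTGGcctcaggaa
Lss (chr10:76531355-76531604): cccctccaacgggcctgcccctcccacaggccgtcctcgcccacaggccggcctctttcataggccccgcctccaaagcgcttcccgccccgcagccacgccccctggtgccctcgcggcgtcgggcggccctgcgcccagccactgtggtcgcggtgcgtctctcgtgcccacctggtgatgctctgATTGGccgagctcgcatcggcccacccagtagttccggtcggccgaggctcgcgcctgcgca
Pmvk (chr3:89454291-89454540): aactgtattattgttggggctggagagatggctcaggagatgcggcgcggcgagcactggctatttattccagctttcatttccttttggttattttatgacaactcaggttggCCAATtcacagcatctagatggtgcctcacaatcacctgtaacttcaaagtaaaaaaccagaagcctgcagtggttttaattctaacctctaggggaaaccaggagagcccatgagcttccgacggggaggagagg
Elovl6 (chr3:129532136-129532385): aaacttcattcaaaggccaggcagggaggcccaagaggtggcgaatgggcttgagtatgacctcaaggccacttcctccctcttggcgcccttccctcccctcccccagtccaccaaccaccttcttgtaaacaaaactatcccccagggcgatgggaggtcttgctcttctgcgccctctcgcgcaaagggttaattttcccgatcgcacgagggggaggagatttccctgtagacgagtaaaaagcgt
CCAAT stood 3 times in the printed stretch of Hmgcs1, 5 times in that of Mvk, once each in Lss and Pmvk, and 0 times in Elovl6. Over the full 300 bases and either strand, 14 of 15 sterol branch genes held CCAAT in a promoter, against 3 of 4 regulators, 2 of 5 fatty acid branch genes and 41.1% of 27025 genes. The Sp1 box GGGCGG was found in 14 of 15, 4 of 4 and 1 of 5 of them, against 38.2% of genes. The 5 fatty acid branch genes leave out Scd1, Scd2 and Fads1. The only Acaca window among them (chr11:84195188-84195437) lies inside the gene and not at its upstream end. The contrast between the branches thus rests on few genes. The sterol regulatory element TCACNCCAC was found in Hmgcs1 alone among the 24 genes, as TCACCCCAC at -137 from the start, shown here with its flanks as cgtcaccgtcTCACCCCACttcccaggtc, and in 1.44% of all genes. The E-box CACGTG was found in 6 of 24 members and 8.09% of genes. The CCAAT boxes printed overlap none of the other motifs. These matches describe letters in a window and are not evidence of binding, and genes with several starts had more sequence searched.

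Total counts ran from 15532973 to 21128507 per library. Levels are given as CPM, counts scaled to library size with TMM correction for composition. Tlr4 stood at 117 to 229.5 CPM in wild-type libraries and 36.5 to 52.9 CPM in knockout libraries, with a log2 fold change of -1.82 between genotypes in water (SE 0.19, adjusted p = 0.0034). The 8 macrophage markers summed to 24412 to 32737 CPM in every library. Most of this sum was Lyz2, at 21130 to 28630 CPM, and single markers varied more. Mrc1 ran from 202 to 781 CPM and Adgre1 from 704 to 1782 CPM over the libraries. Adipocyte markers, which could also give lipogenic transcripts, were at or near 0 (0 to 0.256 CPM summed over 6 genes, none with enough counts to test). Lymphocyte markers summed to at most 6.31 CPM. Stromal markers summed to 277, 248.8 and 44.2 CPM in wild-type water replicates 1 to 3, to 48.9 to 84.8 CPM with GM, 13.6 to 19.05 CPM with MDP, and 3.14 to 9.35 CPM in knockout cells. Neutrophil markers summed to 7.06 to 50.4 CPM in wild-type water, 13.4 to 38.8 CPM with GM and 57.0 to 79.4 CPM with MDP. In knockout cells they summed to 77.3 to 145 CPM in water, 221 to 284 CPM with GM and 162 to 252 CPM with MDP, so that the treated and water libraries did not overlap. Most of the neutrophil sum was S100a8 (4.04 to 141 CPM over the libraries) and S100a9 (1.06 to 127 CPM). Ly6g, Elane and Mpo reached at most 0.244, 0.18 and 0.94 CPM, and Ngp, Ltf and Camp 13.1, 7.28 and 3.09 CPM. Any part of these other cells in the results below was not tested, and fewer cells of a type cannot be told apart from less RNA per cell.

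Wild-type water replicate 3 stood apart for the 31 genes. The level of a list in a library is given as the median over its genes of the log2 level relative to each gene's mean over all libraries. For the sterol branch it was -0.21, -0.28 and -1.03 in wild-type water replicates 1 to 3, and for the fatty acid branch -0.04, -0.12 and -1.24. Both branches were also low in wild-type GM replicates 1 and 3 (sterol -0.65 and -0.90, fatty acid -0.52 and -0.92) but less so in replicate 2 (-0.19 and -0.16). With MDP the wild-type sterol level lay between 0.20 and 0.23, and the knockout libraries lay between 0.16 and 0.35 under all treatments. The sterol branch was thus lower in each wild-type water or GM library than in each of the other 12. A list of 20 cell cycle genes was low in the same libraries: -0.11, -0.23 and -1.70 in wild-type water, -1.42, -0.36 and -1.80 with GM, 0.11 to 0.35 with MDP, and 0.25 to 1.03 in knockout cells. Its part in the results was not tested, and the counts of members called against wild-type water are given with and without replicate 3.

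**Figure D1:**
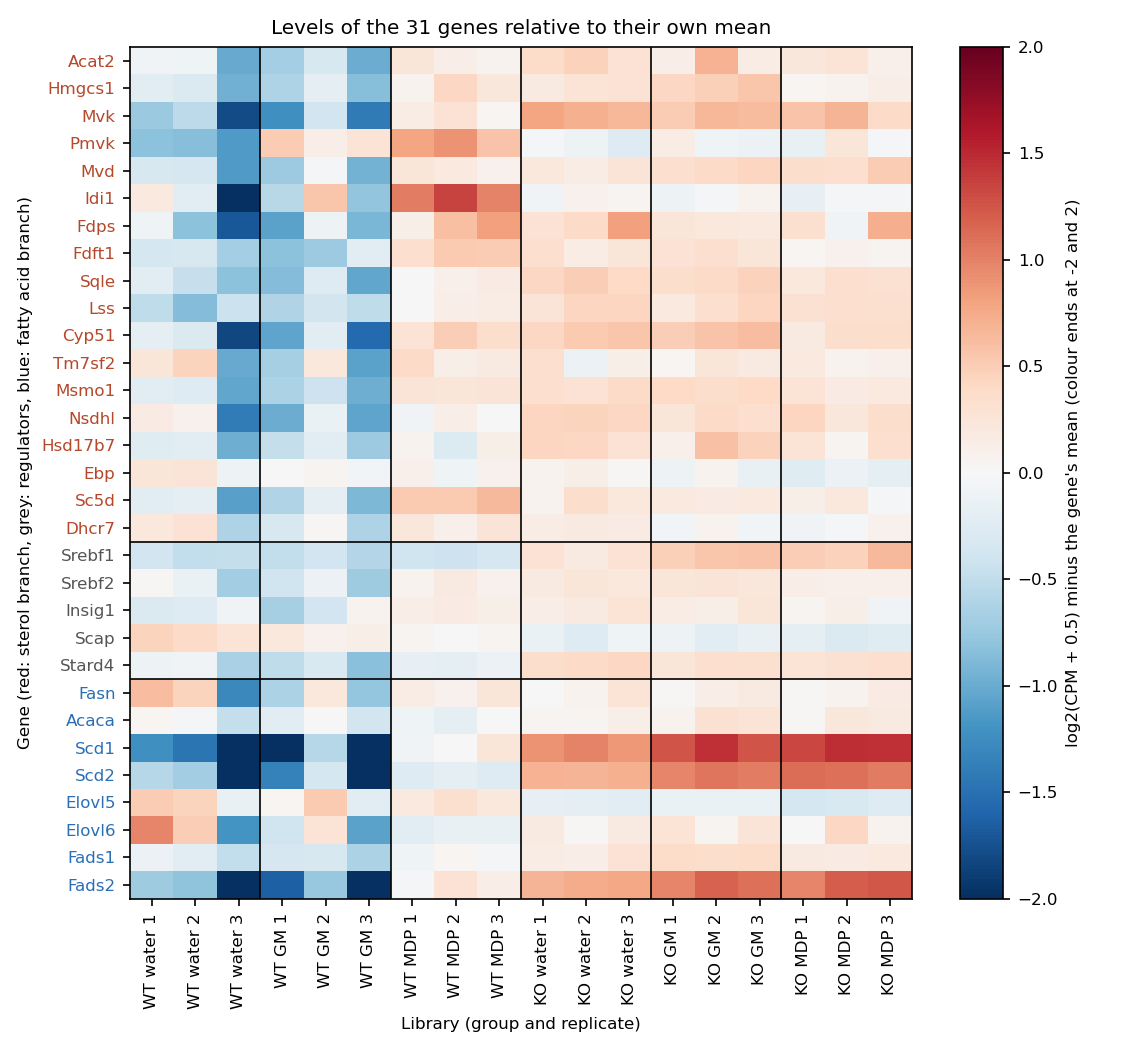
Level of each of the 31 genes (rows, coloured by branch) in each of the 18 libraries (columns), as log2(CPM + 0.5) minus the gene's mean over libraries, with colours ending at -2 and 2. Wild-type water replicate 3 and wild-type GM replicates 1 and 3 are low for most genes, and Scd1, Scd2 and Fads2 are high in all knockout libraries.

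**Figure D2:**
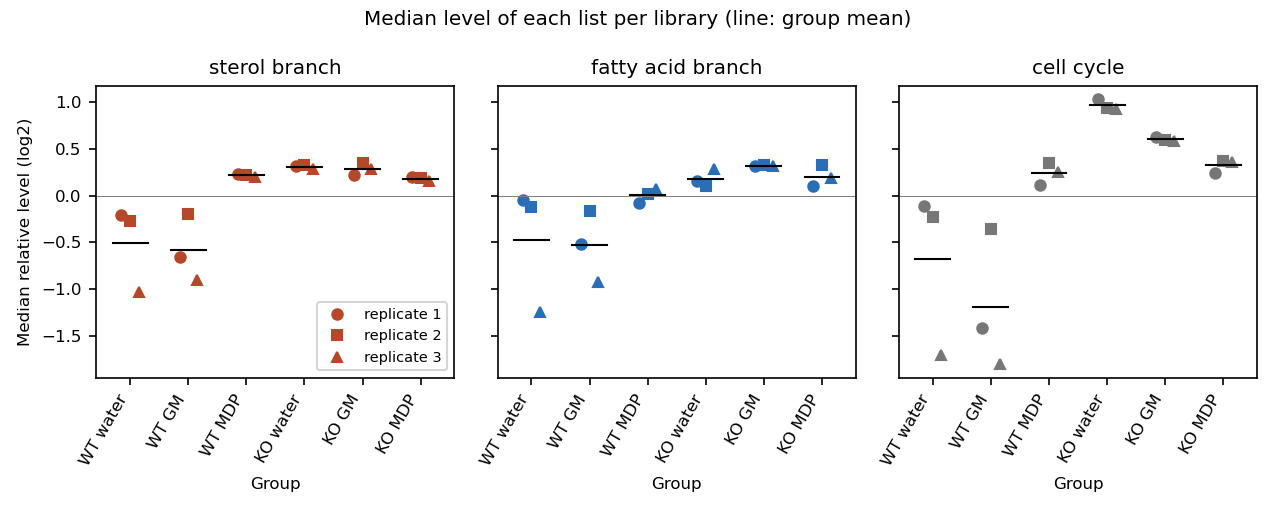
Median relative level (log2) of the 18 sterol branch, 8 fatty acid branch and 20 cell cycle genes in each library, by group, with the symbol giving the replicate and the line the group mean. Wild-type water replicate 3 is the lowest library in the fatty acid panel, at -1.24, and in the sterol panel, at -1.03.

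Levels per kilobase of transcript spanned a wide range. In knockout water cells Scd2, a stearoyl-CoA desaturase, was the most abundant member at a mean of 232 CPM per kilobase, followed by Mvd at 39.0, its relative Scd1 at 37.7 and Srebf2 at 30.95. In wild-type water Scd2 also led, at 70.0, ahead of the elongase gene Elovl5 at 40.9. Fdps, the farnesyl diphosphate synthase gene, was the lowest in both groups (0.55 and 0.16) and rested on 0.111 to 2.98 CPM per library, so its folds are imprecise. Fdps overlaps the protein-coding gene Gm43738 on the same strand, which held 0 counts in every library. How reads within both genes were counted is not given, so the level of Fdps is uncertain. Scd1 and Scd2 are close paralogs, and how reads common to both were counted is not given in the sources used here.

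MDP was compared with water in wild-type cells. Of the 31 genes 27 had a positive log2 fold change, but only 3 rose and 0 fell by edgeR's quasi-likelihood test (adjusted p below 0.05), against 4.63% of all tested genes that rose and 3.59% that fell. At an unadjusted p below 0.05, 15 were higher and 1 lower, and DESeq2 called 12 higher and 1 lower. The 3 genes all belong to the sterol branch, of which 17 of 18 members were positive, with a median log2 fold change of 0.72. The fatty acid branch had 0 of 8 called (2 higher and 0 lower at an unadjusted p below 0.05, and 1 and 0 by DESeq2) and a median of 0.16, and over all tested genes the median was -0.03.

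Pmvk encodes phosphomevalonate kinase, which acts in the mevalonate pathway just before the decarboxylase Mvd (ENSMUSG00000027952, GRCm39 chromosome 3, 89361848 to 89376320). It stood at 13.4, 13.2 and 10.8 CPM in the water libraries and at 42.2, 45.4 and 36.2 CPM with MDP. The groups do not overlap, and replicate 3 was the lowest of the water libraries here too. The mean went from 12.5 ± 1.46 to 41.3 ± 4.67 CPM (SD, n = 3). This 3.33-fold change (log2 1.74, SE 0.15, edgeR adjusted p = 0.0026) passed with any library left out.
Fdft1, squalene synthase, the first step committed to sterols, went from 37.2, 38.2 and 29.6 CPM to 60.6, 68.7 and 67.8 CPM (log2 0.92, SE 0.13, adjusted p = 0.012). Fdft1 overlaps the opposite strand of Ctsb, a gene with 120853 to 259488 counts per library against 487 to 1320 for Fdft1. Whether counting used strand is not given in the sources used here, so Fdft1 is uncertain.
Lss, lanosterol synthase, which closes the sterol rings, went from 21.2, 16.4 and 22.6 CPM to 30.2, 33.5 and 33.8 CPM (log2 0.71, SE 0.14, adjusted p = 0.033). Lss was no lower in replicate 3 than in the other water libraries. It lost the call without any library other than water replicate 3, with an adjusted p of up to 0.15, and Fdft1 lost it without any of the MDP libraries.

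Most other sterol genes had wide intervals with water replicate 3 included. Idi1, isopentenyl diphosphate isomerase, shown with a few others chosen after their values were seen, stood at 39.0, 29.3 and 6.36 CPM in water and 69.3, 87.8 and 68.2 CPM with MDP. The groups do not overlap, yet the log2 fold change of 1.60 (SE 0.58) had an adjusted p of 0.14. Sc5d, a late sterol desaturase, stood at 37.9, 38.2 and 20.4 CPM in water and 63.4, 63.5 and 69.3 CPM with MDP (log2 1.03, SE 0.25, adjusted p = 0.053). In all, 19 members were higher in every MDP library than in every water library and 1 was lower, where 18.8% of all tested genes were higher in this way.

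Without water replicate 3, 17 of the 31 genes rose and 5 fell with MDP, when 17.3% of all tested genes rose and 18.1% fell. The sterol branch had 12 genes up and 1 down, Ebp, and kept a median log2 fold change of 0.51. The risen genes span the pathway, from Hmgcs1 (0.50), Mvk (0.84), Pmvk (1.64), Mvd (0.51) and Idi1 (1.13) in the mevalonate part to Sqle (0.43), Lss (0.78), Cyp51 (0.62), Msmo1 (0.50) and Sc5d (0.78) in the sterol part. The fatty acid branch was divided. Its desaturase genes Scd1 (1.41, SE 0.10), Fads2 (0.91, SE 0.09) and Scd2 (0.41, SE 0.06) rose, whereas Fasn, the fatty acid synthase (-0.37, SE 0.06), and the elongases Elovl6 (-0.98, SE 0.17) and Elovl5 (-0.23, SE 0.06) fell. Among the regulators Insig1 (0.41) and Srebf2 (0.17) rose and Scap (-0.38) fell. The count of called members was 1 without any single MDP library, when 1.2% to 1.51% of all tested genes were called, and the fit of all 18 libraries, which shares a single spread, called 15 (24.7% of all tested genes in either direction). The cell cycle list moved in the same comparison: 16 of its 20 genes rose and 0 fell without replicate 3, with a median of 0.41.

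**Figure D3:**
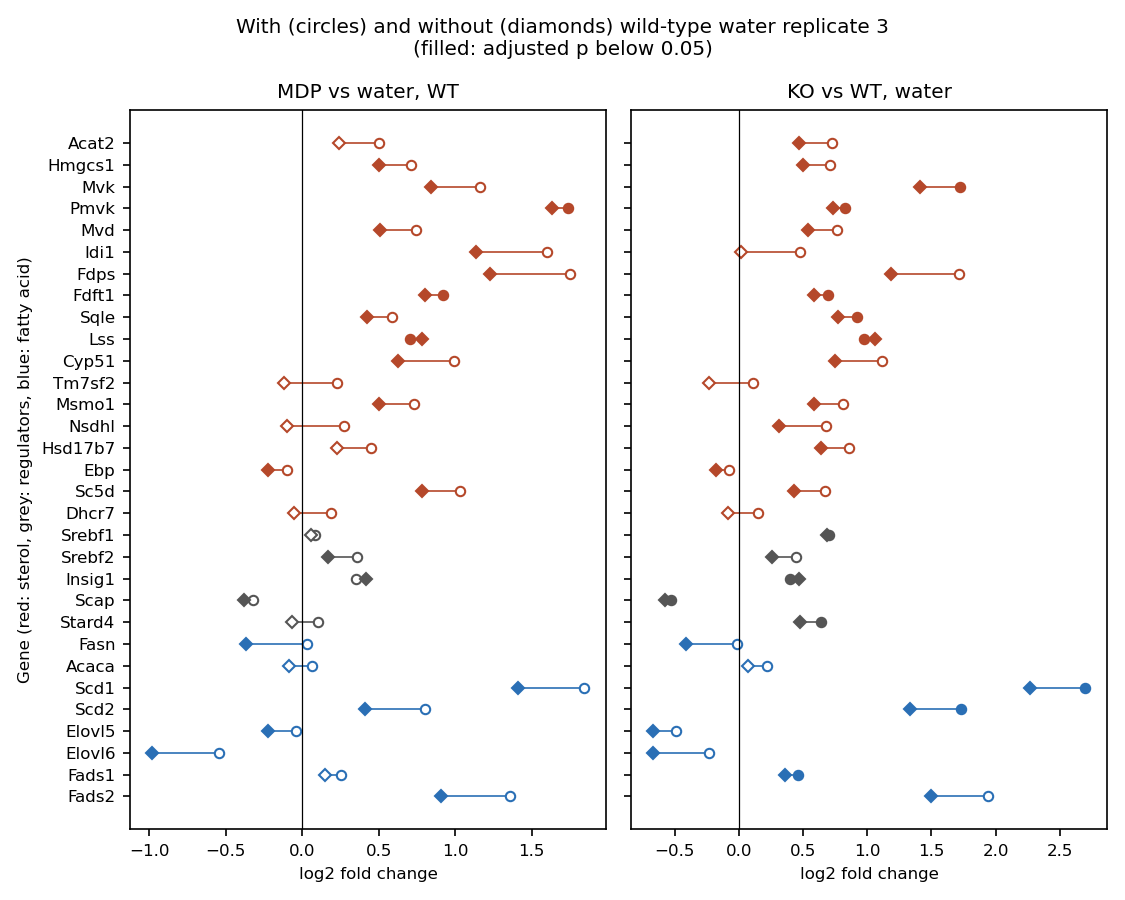
Log2 fold change of each gene for MDP against water in wild-type cells (left) and knockout against wild type in water (right), with all libraries (circles) and without wild-type water replicate 3 (diamonds). Filled symbols passed at an adjusted p below 0.05. Without that library most folds move toward lower values, 22 and 27 genes pass, and Fasn, Elovl5 and Elovl6 lie below 0 in both panels.

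GM was compared with water in wild-type cells, GM being called a TLR4 agonist in the title of the series. Pmvk was the only member that rose, and 0 fell, against 0.621% of all tested genes that rose and 0% that fell. The 0 stands for all 15450 genes, of which 974 had an unadjusted p below 0.05 in either direction, and among the members Pmvk alone had one and DESeq2 also called only Pmvk. Pmvk stood at 34.5, 26.5 and 29.3 CPM with GM, above the 10.8 to 13.4 CPM in water. The fold was 2.41 (log2 1.27, SE 0.16, adjusted p = 0.032). The call was lost when any library other than water replicate 3 was left out, with an adjusted p of up to 0.19, and with a spread fitted for each group (adjusted p = 0.052).
The other sterol branch genes had log2 fold changes of -0.45 to 0.31, and the branch medians were -0.11 (sterol) and -0.15 (fatty acid). The intervals are wide, as for Scd1 (-1.37 to 1.96) and Idi1 (-1.28 to 1.90), so a 2-fold change of these genes in either direction lies inside them. Without water replicate 3 Pmvk was again the only call (log2 1.18, adjusted p = 0.025), with 1.51% of all tested genes up and 0.375% down. The sterol and fatty acid medians were then -0.33 and -0.41.

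GM and MDP were set against each other in wild-type cells, a comparison that uses no water library. In this contrast 11 of the 31 genes were lower with GM and 0 higher, against 4.67% of all tested genes lower and 4.96% higher. DESeq2 called 18 lower and 0 higher, and 22 and 0 had an unadjusted p below 0.05. Of the sterol branch 9 of 18 genes were called and all 18 had a negative log2 fold change, with a median of -0.80. Msmo1, a sterol methyl oxidase, was at 60.4, 70.3 and 47.8 CPM with GM and 113, 111 and 113 CPM with MDP (log2 -0.94, SE 0.13, adjusted p = 0.0086). Sc5d was at 28.9, 38.5 and 23.3 CPM with GM against 63.4 to 69.3 with MDP (log2 -1.13, SE 0.17, adjusted p = 0.010). In the fatty acid branch the desaturases Fads2 (-1.63, SE 0.37) and Fads1 (-0.42, SE 0.10) were lower and all 8 values were negative. In 22 members every GM library lay below every MDP library, as in 16.7% of all tested genes. The number called was 25 without GM replicate 2 (29.1% of all tested genes), 1 without GM replicate 1 (2.35%) and 0 without any single MDP library (1.37% to 1.56%). The cell cycle list was lower with GM too (6 of 20 called, median -1.48).

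Knockout and wild-type cells were compared in water. The knockout level was higher in 11 members and lower in 1, Scap, against 6.32% of all tested genes higher and 8.3% lower. The median over members was 0.69 and over all tested genes -0.03. In the sterol branch 5 genes were higher and 0 lower, with 13 higher and 0 lower at an unadjusted p below 0.05, and 10 and 0 by DESeq2. They were Mvk, Pmvk, Fdft1, Sqle and Lss. Lss went from 16.4 to 22.6 CPM in wild type to 36.4, 41.0 and 41.4 CPM in knockout cells (log2 0.98, SE 0.15, adjusted p = 0.010). Sqle, squalene epoxidase, stood at 59.3, 50.05 and 38.7 CPM in wild-type and 92.0, 97.5 and 90.8 CPM in knockout cells (log2 0.92, SE 0.16, adjusted p = 0.015). Pmvk (0.83, SE 0.14) and Fdft1 (0.69, SE 0.13) were higher by less.
Srebf1 stood at 82.2, 76.3 and 76.8 CPM in wild-type water and 131, 121 and 131 CPM in knockout water. It did not vary with replicate 3, and its difference (log2 0.70, SE 0.08, adjusted p = 0.0052) passed with any library left out. Srebf1 overlaps Rai1 on the opposite strand. Scap, which escorts SREBPs, was lower in knockout cells (37.9, 34.7 and 39.2 against 56.5, 54.4 and 50.5 CPM, log2 -0.53, SE 0.10, adjusted p = 0.017).
The largest fold of any member was that of Scd1, at 41.3, 35.0 and 8.74 CPM in wild-type and 182, 193 and 178 CPM in knockout cells. It was 6.49-fold higher (log2 2.70, SE 0.52, adjusted p = 0.021). Scd2 was 3.31-fold higher (log2 1.73, SE 0.45, adjusted p = 0.049) and Fads1, the delta-5 desaturase gene, 1.38-fold (log2 0.46, SE 0.12, adjusted p = 0.048). Scd1 and Scd2 missed the threshold when genes with low counts were kept (adjusted p = 0.059 and 0.12).

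Without water replicate 3, 22 members were higher and 5 lower in knockout cells, when 22.1% of all tested genes were higher and 24.7% lower. The sterol branch had 14 genes higher and 1 lower, the regulators 4 and 1, and the fatty acid branch 4 and 3. Scd1 (2.27, SE 0.07), Fads2 (1.495, SE 0.07), Scd2 (1.33, SE 0.05) and Fads1 (0.36, SE 0.06) were higher, and Elovl5 (-0.67, SE 0.05), Elovl6 (-0.67, SE 0.15) and Fasn (-0.41, SE 0.08) lower. With replicate 3 included, 23 members were higher in every knockout water library than in every wild-type water library, as were 22% of all tested genes. The fit of all 18 libraries called 23 members (33.1% of all tested genes). The number called fell to 6 or 5 without water replicate 1 or 2 of the wild type (8.53% and 6.45% of all tested genes), and to 1, Srebf1, without any knockout water library (2.13% to 2.69%). The cell cycle list was higher in knockout cells as well (7 of 20 called, median 1.55), and stromal markers were lower in sum, as given above.

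GM was compared with water in knockout cells, where replicates lay close together. Here 7 of 31 genes rose and 0 fell, against 3.79% of all tested genes that rose and 4.05% that fell. At an unadjusted p below 0.05, 8 were higher and 1 lower, and DESeq2 called the same numbers as edgeR (7 and 0). The fatty acid branch had 4 of 8 genes called, all of them desaturases, the sterol branch 2 of 18, and the regulators Srebf1. The branch medians were 0.16 and -0.03.
Scd2 rose from 1259, 1255 and 1284 CPM to 1538, 1647 and 1583 CPM (log2 0.33, SE 0.04, adjusted p = 9.6e-08). Fads2, the delta-6 desaturase gene, rose from 87.7, 91.4 and 93.8 CPM to 109, 124 and 118 CPM (log2 0.37, SE 0.05, adjusted p = 1.6e-06). Scd1 rose from 182, 193 and 178 CPM to 233, 269 and 232 CPM (log2 0.41, SE 0.05, adjusted p = 4.0e-06). In these 3 genes the GM and water libraries do not overlap.
Fads1 rose less (log2 0.18, SE 0.05, adjusted p = 0.011). Srebf1 went from 131, 121 and 131 CPM to 149, 157 and 160 CPM (log2 0.29, SE 0.04, adjusted p = 1.9e-05). Hmgcs1, the synthase of hydroxymethylglutaryl-CoA at the head of the sterol branch, went from 118, 125 and 127 CPM to 138, 144 and 153 CPM (log2 0.24, SE 0.05, adjusted p = 0.00047). Hmgcs1 overlaps the long noncoding RNA gene Gm48342 on the opposite strand, which had 30 to 258 counts per library against 936 to 3413 for Hmgcs1. Mvd, mevalonate diphosphate decarboxylase, rose by 0.18 on the log2 scale (SE 0.05, adjusted p = 0.017). Fads1 lost its call without water replicate 1 or 2 or GM replicate 3 (adjusted p of up to 0.081), and Mvd without water replicate 2 or GM replicate 2 or 3 (up to 0.12).
Fasn did not follow: it stood at 130.1, 137 and 158 CPM in water and 133, 142 and 148 CPM with GM (log2 0.00, interval -0.13 to 0.14). The cell cycle list moved the other way, with 12 of 20 genes falling and 0 rising, and the neutrophil markers were higher in sum, as given above. Their part was not tested. In the fit of all 18 libraries, which carries the wide wild-type spread, 0 members and 0.0194% of all tested genes were called.

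MDP in knockout cells gave calls in both directions. Of the 31 genes 5 rose and 5 fell, against 9.29% of all tested genes that rose and 9.84% that fell. The 5 that fell were all sterol branch genes, and the 5 that rose were Scd1, Scd2 and Fads2 of the fatty acid branch, Srebf1 and Mvd. The medians were -0.15 for the sterol and 0.07 for the fatty acid branch.
Scd1 reached 244, 272 and 269 CPM (log2 0.51, SE 0.05, adjusted p = 1.2e-10). Scd2 reached 1687, 1673 and 1599 CPM (log2 0.39, SE 0.04, adjusted p = 2.9e-09), and Fads2 108, 127 and 130.3 CPM (log2 0.42, SE 0.06, adjusted p = 1.1e-06). All these values lie above those in knockout water. Srebf1 rose as with GM (log2 0.29, SE 0.05, adjusted p = 3.5e-05), and Mvd rose by 0.20 on the log2 scale (SE 0.06, adjusted p = 0.0099).
Ebp, a sterol isomerase, fell from 44.0, 45.0 and 42.4 CPM to 35.1, 38.2 and 36.8 CPM (log2 -0.25, SE 0.07, adjusted p = 0.0063). Cyp51, lanosterol demethylase, fell from 109, 117 and 121 CPM to 92.9, 104 and 105 CPM (log2 -0.20, SE 0.05, adjusted p = 0.0069). It overlaps Akap9 on the opposite strand. Hmgcs1 fell from 118 to 127 CPM to 107 to 113 CPM (log2 -0.17, SE 0.05, adjusted p = 0.013), in contrast to its rise with GM. Fdft1 and Sqle also fell (log2 -0.18 and -0.15). Cyp51, Hmgcs1 and Mvd each lost the call in 2 of 6 fits with a library left out, with an adjusted p of up to 0.089, 0.10 and 0.12.
Without knockout water replicate 3 the sterol branch had 1 gene up and 1, Ebp, down. Of all tested genes, 16.1% were then called in either direction. DESeq2 called 5 members higher and 3 lower (16.1% of all tested genes in either direction). The fit of all 18 libraries called 1, Srebf1 (2.76% of all tested genes). The cell cycle list fell here in 19 of 20 genes, and neutrophil markers were again higher in sum.

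**Figure D4:**
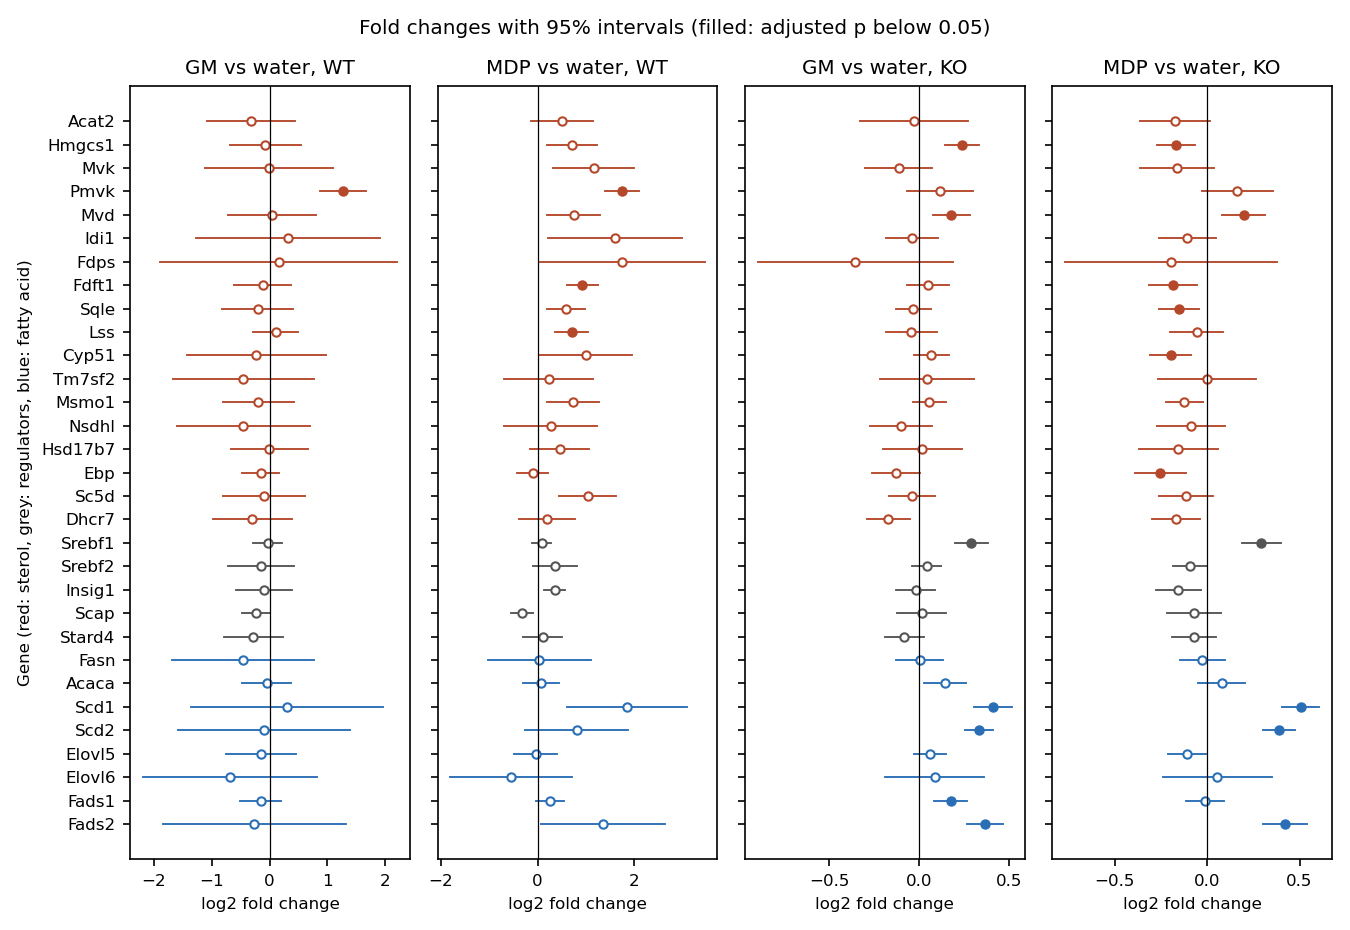
Log2 fold change of each gene with its 95% interval for the 4 comparisons of a ligand with water, with panels on different horizontal scales and filled points where the adjusted p was below 0.05. Intervals in wild-type cells are several times wider than in knockout cells, and in knockout cells Scd1, Scd2, Fads2 and Srebf1 rise with either ligand.

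Between GM and MDP in knockout cells, 7 members were higher with GM and 0 lower, against 7.73% of all tested genes higher and 8.55% lower. By an unadjusted p below 0.05, 9 were higher and 0 lower, against 4220 of 15450 genes in either direction. DESeq2 called 7 and 0. They were the sterol genes Hmgcs1 (log2 0.40, SE 0.05, adjusted p = 2.3e-08), Cyp51 (0.26, SE 0.05), Fdft1 (0.23, SE 0.06) and Msmo1 (0.17, SE 0.05), with Srebf2 (0.13, SE 0.05), Fads1 (0.18, SE 0.05) and Elovl5 (0.16, SE 0.05). Hmgcs1 was at 138 to 153 CPM with GM and 107 to 113 CPM with MDP, with no overlap. The differences for Scd1, Scd2 and Fads2 did not pass, with intervals of -0.21 to 0.01, -0.15 to 0.03 and -0.20 to 0.07. The number called was 4 without GM replicate 3 (12.9% of all tested genes) or without MDP replicate 2 (13.2%). It was 0 in the fit of all 18 libraries (1.57%). For Hmgcs1, Fdft1, Cyp51, Msmo1 and Fads1 the sign was the reverse of that in wild-type cells, where each was lower with GM than with MDP. That reversal itself was not tested.

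The GM and MDP responses of the genotypes were then compared by an interaction term. For GM, Pmvk alone differed, with a response 1.16 larger on the log2 scale in wild-type cells (SE 0.19, adjusted p = 0.015), and 0 members had a smaller response, against 0.926% and 0.0129% of all tested genes. At an unadjusted p below 0.05 there was 1 larger and 1 smaller, and DESeq2 called 1 and 0. In knockout cells Pmvk was 23.6, 22.4 and 20.2 CPM in water and 26.8, 22.9 and 22.2 CPM with GM. The call was lost when each group had a spread of its own (adjusted p = 0.071) and without knockout water replicate 1 or 2 or knockout GM replicate 2 or 3. Without wild-type water replicate 3 Pmvk was again the only call (1.03, SE 0.17, adjusted p = 0.0075), when 2.54% of all tested genes had a larger and 0.796% a smaller response.
For MDP, 9 members had a larger response in wild-type cells and 0 a smaller one, against 4.63% and 3.34% of all tested genes. By DESeq2 the numbers were 10 and 0, and 17 and 1 had an unadjusted p below 0.05. The 9 were 8 sterol genes and Insig1, led by Pmvk (1.57, SE 0.19, adjusted p = 0.00068), Fdft1 (1.10, SE 0.14, adjusted p = 0.00093) and Lss (0.75, SE 0.16, adjusted p = 0.015). All 18 sterol values were positive (median 0.80), while 0 of 8 fatty acid branch genes were called (median 0.16; 1 at an unadjusted p below 0.05 and 0 by DESeq2). Without wild-type water replicate 3, 17 members had a larger and 4 a smaller response, when 13.9% and 12.3% of all tested genes did. The number called was 3 to 5 without any single MDP or knockout library, when 4.19% to 4.96% of all tested genes were called in either direction. The smaller responses without wild-type water replicate 3 were those of Srebf1 (-0.24), Scap (-0.31), Fasn (-0.35) and Elovl6 (-1.05). The cell cycle list had 6 of 20 genes with a larger response in wild-type cells, and 20 of 20 without replicate 3.

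The branches were compared by the difference of their medians. Sterol minus fatty acid, the difference of the median log2 fold changes was 0.56 for MDP in wild-type cells and 0.41 for knockout against wild type in water. It was -0.19 for GM and -0.22 for MDP in knockout cells, and 0.05 for GM in wild-type cells. Without wild-type water replicate 3 the values were 0.48 (MDP), 0.35 (knockout against wild type) and 0.076 (GM). A spread over libraries can be given for a related quantity, the sterol minus the fatty acid list level of each library. It was -0.04 ± 0.22 in wild-type water, -0.05 ± 0.079 with GM and 0.21 ± 0.089 with MDP (SD, n = 3). In knockout cells it was 0.13 ± 0.11 in water, -0.04 ± 0.058 with GM and -0.02 ± 0.12 with MDP. On this scale MDP differed from water by 0.25 in wild-type cells, close to the SD of 0.22 within wild-type water. Knockout differed from wild-type water by 0.16, which is less than that SD. Both branches were low in wild-type water replicate 3, and without it these differences were 0.37 and 0.29. For GM in wild-type cells the difference of median log2 fold changes was 0.32 without GM replicate 2. No p-value is attached to these differences.

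The fatty acid branch held genes that moved apart. In CPM, Fasn was at 199, 177 and 52.8 in wild-type water, 84.1, 151 and 76.1 with GM and 145, 138 and 154 with MDP, and at 130.1 to 158 in all knockout libraries. Scd1 was at 21.6, 65.2 and 17.7 with GM and 92.5, 96.8 and 115 with MDP in wild-type cells, below the 178 to 272 of all knockout libraries. Fads2 was likewise highest in knockout cells, at 33.2, 31.2 and 6.58 in wild-type water, 17.2, 32.1 and 9.89 with GM, 54.0, 66.9 and 60.1 with MDP and 87.7 to 130.3 in knockout cells. The wild-type water and GM ranges of all these genes overlapped. Acaca, acetyl-CoA carboxylase, the rate-limiting step, spanned only 41.2 to 70.8 CPM over the 18 libraries and passed in none of the comparisons with all libraries.

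**Figure D5:**
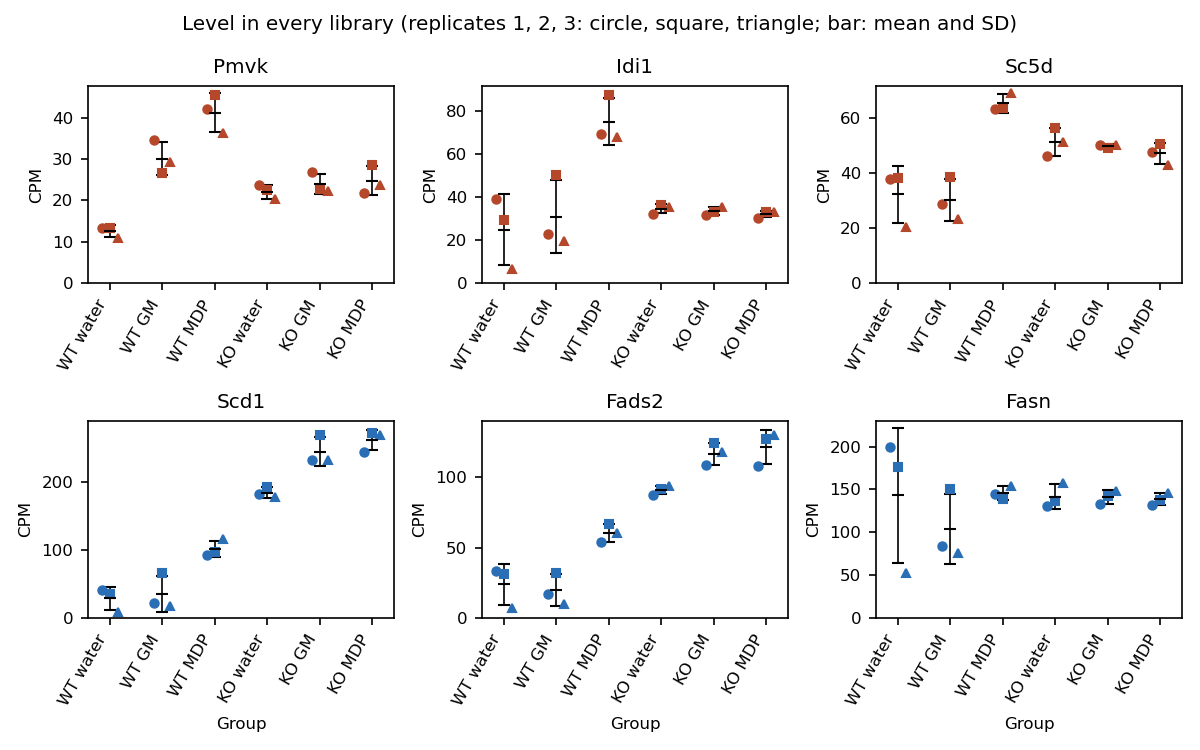
CPM of 3 sterol branch genes (top) and 3 fatty acid branch genes (bottom) in every library by group, with mean and SD (n = 3). Pmvk is higher with either ligand in wild-type cells, Idi1 and Sc5d are highest with MDP in wild type, and Scd1 and Fads2 are highest in knockout cells.

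Of 22 other genes of these pathways, 1 rose and 1 fell with MDP in wild-type cells. Of all tested genes, 4.63% rose and 3.59% fell there. Mid1ip1, an activator of acetyl-CoA carboxylase, rose (log2 0.67, SE 0.13, adjusted p = 0.029) and Me1, the NADPH-forming malic enzyme, fell (log2 -2.20, SE 0.46, adjusted p = 0.036). Me1 was high in the wild-type libraries in which members were low: 9.74, 12.8 and 32.9 CPM in water. Without water replicate 3, 5 rose and 2 fell, when 17.3% of all tested genes rose and 18.1% fell. The log2 fold change of Me1 was then -1.501 (SE 0.18) and that of Mid1ip1 0.56 (SE 0.07). With GM in wild-type cells 0 of 22 were called (0.621% of all tested genes), and 0 also at an unadjusted p below 0.05 and by DESeq2.
In knockout cells GM gave 3 rises and 1 fall, against 3.79% and 4.05% of all tested genes. Acss2 (0.67), which makes acetyl-CoA from acetate, and Me1 (0.49) were among those that rose. MDP gave 3 rises and 4 falls, against 9.29% and 9.84% of all tested genes. The smallest adjusted p were those of Lpin1 (-0.55), Mid1ip1 (-0.30) and Acss2 (0.59). In knockout against wild-type water 3 were higher and 1 lower, against 6.32% and 8.3% of all tested genes. Mid1ip1 (0.79) and Aacs (0.38) were among those higher, and Lpin1 (-0.70) was lower. Without wild-type water replicate 3 the numbers were 9 and 5, when 22.1% of all tested genes were higher and 24.7% lower. Mid1ip1 was then at 0.69, Aacs at 0.35 and Lpin1 at -0.82.

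Of 10 oxysterol and LXR genes, 3 rose with GM in knockout cells, as did 3.79% of all tested genes. They were Mylip, a ubiquitin ligase induced by LXR (0.43, SE 0.05, adjusted p = 4.3e-08), Abca1, the cholesterol exporter (0.36, SE 0.04, adjusted p = 5.6e-08), and Lpcat3 (0.32, SE 0.05, adjusted p = 3.4e-06). With MDP in knockout cells 4 rose and 2 fell, led by Abca1 (0.73), Soat1 (-0.38) and Mylip (0.37). Of all tested genes, 9.29% rose and 9.84% fell there. Abca1 was at 576, 552 and 603 CPM in knockout water, 708 to 764 with GM and 949 to 962 with MDP, with no overlap between these groups. In knockout against wild-type water Mylip (0.82) and Abca1 (1.57) were higher, at 0.96 and 1.29 without wild-type water replicate 3. With MDP in wild-type cells Abcg1 fell (-0.82, SE 0.19, adjusted p = 0.048), by 1.01 without water replicate 3 (SE 0.06). Abca1 moved the other way, from 220, 252 and 113 CPM in wild-type water to 359, 327 and 361 CPM with MDP. Without water replicate 3, 3 of 10 rose and 3 fell, when 17.3% of all tested genes rose and 18.1% fell. With GM in wild-type cells 0 of 10 were called (0.621% of all tested genes), and 0 also at an unadjusted p below 0.05 and by DESeq2. Ch25h, which makes an oxysterol that restrains SREBP processing, was at 7.42, 7.43 and 3.21 CPM in wild-type water and 2.03 to 2.24 CPM with MDP (log2 -1.497, adjusted p = 0.056), and passed without water replicate 3 (-1.81, SE 0.21). It was higher with GM than with MDP in wild-type cells (1.68, SE 0.30, adjusted p = 0.018), where Apoe, a lipid carrier, was lower (-1.67, SE 0.15).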

How the data were processed

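RNA from 18 samples in 6 groups of 3 was sequenced from poly(A)-selected directional libraries, per the labels' protocols. The deposited table holds the authors' raw read counts per gene, made with HISAT2 2.0.5 on GRCm39 and featureCounts 1.5.0-p3, per the submitters' processing notes. Counting settings, strand use and annotation release are not given in the sources used here. Deposited FPKM values were not used.

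Tests on the counts used edgeR 4.0.16 under R 4.3.3 (filterByExpr with a minimum count of 10, TMM, robust quasi-likelihood F tests, 2-sided, Benjamini-Hochberg over 15450 genes). Each fit held only the compared libraries, 6, or 12 for differences between genotypes, since spread differed between groups. SE is the log2 fold change divided by the square root of F. Alternatives were a fit of all 18 libraries, DESeq2 1.42.0, RLE factors, no filter, a spread for each group (limma 3.58.1), the replicate number as a block and leaving out each library. Precision rests on depth and on 3 libraries per group.

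Members and lists were chosen with earlier results of these data known. Named for each comparison were the passing members with the smallest adjusted p (4 sterol, 2 regulator, 4 fatty acid) and 3 genes of each other list. Genes named beyond this were chosen after their values were seen. Some genes of the other lists are not reported here.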

Additional observations from a re-analysis of the deposited data

Results flagged for a closer look

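The responses of wild-type and knockout cells differed by the interaction test for the following genes, each given as the response in wild type minus that in knockout on the log2 scale. For GM it was Pmvk (1.16), a call lost with a spread for each group and without any of 4 knockout libraries (water replicates 1 and 2, GM replicates 2 and 3). For MDP they were Pmvk (1.57), Mvk (1.32), Sc5d (1.14), Fdft1 (1.10), Hmgcs1 (0.87), Msmo1 (0.85), Lss (0.75), Sqle (0.73) and Insig1 (0.50). Each adjusted p was below 0.05 by edgeR's interaction term. All 10 values are positive and rest on the same wild-type water libraries. For Hmgcs1, Fdft1 and Sqle the MDP response in knockout cells was itself a fall that passed the test.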

How the results depend on the processing

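The number of members called depended on the fit and on single libraries. With all 18 libraries in the fit it was 15 for MDP in wild type (24.7% of all tested genes) and 23 for knockout against wild type in water (33.1%). In knockout cells it was 0 for GM (0.0194%), 1 for MDP (2.76%) and 0 for GM against MDP (1.57%). DESeq2 called 13 for MDP in wild type (15.9%) and 18 for GM against MDP in wild type (17%). A spread for each group gave 8 (8.32%) and 17 (12.6%) there. It gave 0 for GM in wild type (0.421%) and for the GM response difference (0.731%). Without the low-count filter the MDP response difference had 5 (3.58%). With a replicate block, 1 was called for MDP in wild type (2.32%) and 6 for knockout against wild type (5.53%). Whether the replicate numbers pair the libraries is not given. Same-number correlations were -0.36, 0.69 and 0.63 for GM in wild type. They were below 0.1 in at least 1 pair of every comparison, which does not settle pairing with 3 libraries per group. With single libraries left out the counts ran from 0 to 1 for GM in wild type (0.0583% to 1.89% of all tested genes). They ran from 0 to 1 for the GM response difference (0.46% to 3.34%). For MDP they ran from 1 to 22 in wild type (1.2% to 35.5%) and 6 to 10 in knockout (15.2% to 19.1%). For GM against MDP they ran from 0 to 25 in wild type (1.37% to 29.1%) and 4 to 7 in knockout (11.6% to 15.6%). For knockout against wild type the range was 1 to 27 (2.13% to 46.8%), and for the MDP response difference 3 to 21 (4.19% to 26.2%). The branch difference for GM in wild type ran from 0.019 to 0.32, and the other branch differences moved, under every alternative run, by less than the SD within groups of the sterol minus fatty acid list level of a library. Of 28 called values of named genes, 0 changed sign in any alternative. All 28 passed with DESeq2 and with RLE factors, 14 with all 18 libraries, 26 without the filter, 22 with the block and 26 with a spread for each group, and 57 of 168 values with a library left out did not pass.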
